A study of Homo sapiens with 51 samples.

Results

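The genes described here are the replication-dependent histone genes of the table, taken as every row whose symbol starts with HIST1H, HIST2H, HIST3H or HIST4H. The rule found 68 of 24033 listed genes, and it used names, not measured values. By symbol, 6 of these 68 genes fall in the linker histone H1 class, 17 in H2A, 21 in H2B, 12 in H3 and 12 in H4. The HIST1 cluster on chromosome 6 holds 56 of them, the HIST2 cluster on chromosome 1 holds 9, HIST3 on chromosome 1 holds 2, and HIST4 on chromosome 12 holds 1. GENCODE v29 lists all 68, 63 as protein-coding and 5 as pseudogenes. The class counts include the pseudogenes, which lie in the H2A, H2B and H3 classes.

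RNA was measured in 51 libraries of 17 groups with 3 replicates each. HMLE-TWIST1 cells overexpress the transcription factor TWIST1. HMLE cells, labelled wild type, are the immortalised human mammary epithelial cells they derive from. Day 2 HMLE-TWIST1 groups received 100, 150, 200 or 500 nM chaetocin, a fungal inhibitor of SUV39-type H3 lysine 9 methyltransferases, for 48 h. One day 4 HMLE-TWIST1 group received 80 nM chaetocin for 15 h, was washed, and grew for 48 h in medium free of the compound. DMSO groups of both lines stand beside them, 1 per line on day 2 (48 h of DMSO) and 1 per line on day 4 (15 h of DMSO, then 48 h without it). In the RNA interference arm, both lines received SUV39H1/H2 DsiRNA (called knockdown here) or scramble siRNA for 48 h, and were collected on day 2 or after 48 h more in fresh medium on day 4. All cells grew in the same mix of mammary epithelial medium and DMEM/F12 with 10% FCS. No label names the promoter of the TWIST1 transgene, says whether HMLE-TWIST1 is 1 clone, or says that replicates were separate cultures, so p-values measure the spread between these samples only.

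Replication-dependent histone genes supply the core histones H2A, H2B, H3 and H4 and the linker histone H1 that package newly made DNA. Their transcription is switched on in S phase by NPAT, a substrate of the cyclin E and CDK2 kinase, at histone locus bodies. Their mRNAs usually lack introns and a poly(A) tail and end in a conserved stem-loop that is bound by SLBP and cut with the help of the U7 snRNP, and they are degraded when DNA synthesis stops. A few of these genes also give polyadenylated mRNA in differentiated or resting cells. The present libraries were made from total RNA after removal of ribosomal RNA, so histone mRNAs without a tail could be read.

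The sequences below show the elements that these genes share and that the choice by name did not use. In RefSeq promoters of build GRCh38.p14 (250 bases before the start to 50 after it), 58 of the 68 genes had an entry. The CCAAT box, searched on both strands, was present in 51 of the 58 (87.9%), against 34.6% of all 35116 promoters. It was in all 6 H1, 15 H2A, 18 H2B and 9 H3 promoters, but in 3 of the 10 H4 promoters. The TATA box letters TATAAA, searched on the sense strand, were in 34 of 58 (58.6%), against 7.33% of all promoters. The octamer ATTTGCAT, searched on both strands, was in 24 of 58 (41.4%), against 1.77% of all. All 24 belonged to H2A (10 of 15) or H2B (14 of 18). These matches describe letters in a window and not occupied sites. The 160 bases before the start are printed for 5 genes on which the results turn, with matches to these motifs in capitals. HIST1H3C and HIST1H1B fell furthest between days in HMLE scramble libraries, HIST1H2AJ was the most abundant H2A gene, and HIST1H2AC and HIST2H2BE did not fall there.
HIST1H3C (H3C3, chr6:26045224-26045383, + strand): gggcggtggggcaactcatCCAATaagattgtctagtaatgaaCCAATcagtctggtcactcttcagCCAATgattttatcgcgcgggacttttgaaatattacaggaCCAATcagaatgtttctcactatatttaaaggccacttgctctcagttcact
HIST1H1B (H1-5, chr6:27867589-27867748, - strand): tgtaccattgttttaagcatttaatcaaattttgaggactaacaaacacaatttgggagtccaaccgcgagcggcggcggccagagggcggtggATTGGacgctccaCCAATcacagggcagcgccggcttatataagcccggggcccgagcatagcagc
HIST1H2AJ (H2AC14, chr6:27814778-27814937, - strand): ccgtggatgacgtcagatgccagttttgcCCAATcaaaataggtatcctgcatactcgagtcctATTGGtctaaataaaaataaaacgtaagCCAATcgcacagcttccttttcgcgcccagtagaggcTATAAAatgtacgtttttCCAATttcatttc
HIST1H2AC (H2AC6, chr6:26124012-26124171, + strand): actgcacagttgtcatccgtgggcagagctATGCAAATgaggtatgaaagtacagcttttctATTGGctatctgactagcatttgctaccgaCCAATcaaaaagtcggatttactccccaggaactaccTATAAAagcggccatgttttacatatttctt
HIST2H2BE (H2BC21, chr1:149886683-149886842, - strand): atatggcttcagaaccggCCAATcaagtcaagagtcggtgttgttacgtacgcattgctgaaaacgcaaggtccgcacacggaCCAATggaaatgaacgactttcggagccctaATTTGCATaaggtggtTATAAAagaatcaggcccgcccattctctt

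The 3′ stem-loop was searched in GENCODE v29 protein-coding transcripts. It was found in 54 of 19669 genes (0.275%), the histone genes included, and in 26 of the 63 protein-coding histone genes (41.3%). The search covered whole transcripts and not their ends alone. Many histone gene models stop at the stop codon, where the element cannot be seen. Of the 30 genes whose model runs at least 50 bases past the stop codon, counted along the genome with any introns, 25 held it. The 26-base stretches below are shown because they are the element by which these mRNAs are made and destroyed, and because the genes named react differently in the results. Capitals mark the stem, loop and return stem.
HIST1H2AI: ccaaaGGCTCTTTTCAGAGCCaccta
HIST1H2AC: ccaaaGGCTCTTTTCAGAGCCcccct
HIST2H2BE: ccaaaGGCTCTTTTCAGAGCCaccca
HIST1H2BD: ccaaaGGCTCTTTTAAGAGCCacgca
HIST1H3E: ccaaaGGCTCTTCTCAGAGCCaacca
HIST1H4B: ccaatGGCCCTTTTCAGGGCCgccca
HIST3H2A: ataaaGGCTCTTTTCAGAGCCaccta
HIST4H4: caaaaGGCCCTTTTCAGGGCCcccaa
HIST1H2AI, HIST1H2AC, HIST2H2BE and HIST3H2A carry the same 16 bases of stem and loop, and so do HIST1H4B and HIST4H4.

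Libraries held 7897060 to 15662385 reads in listed genes. Summed mammary epithelial markers reached 5515 to 12489 CPM (reads of a gene scaled to library size) in HMLE libraries and 69.1 to 264.6 CPM in HMLE-TWIST1 libraries, so these markers were low in a line that the labels also call mammary gland epithelial cells. Summed mesenchymal markers reached 6696 to 33009 CPM in HMLE-TWIST1 libraries and 833.6 to 3313 CPM in HMLE libraries. Leukocyte, endothelial and germ cell markers summed to at most 27.1, 17.2 and 5.12 CPM in any library. The adipocyte list reached 446.9 CPM through FABP4, while ADIPOQ stayed at or below 0.340 CPM. TWIST1 was higher in HMLE-TWIST1 cells by 5.47 to 6.68 on the log2 scale. SUV39H1 fell by 1.28 and 0.90 in HMLE knockdown cells on days 2 and 4, and by 1.40 and 1.03 in HMLE-TWIST1 knockdown cells. SUV39H2 fell by 0.39 and 0.50 in HMLE and by 1.21 and 0.81 in HMLE-TWIST1 on the same days. The table was processed in 3 parts, and 60 of the 68 genes are listed in all 3. In bulk RNA, fewer cells of a type and less RNA per cell cannot be told apart.

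The 68 genes together took between 0.0437% and 0.798% of the reads of a library. In the scramble libraries of day 4 they took 0.611, 0.618 and 0.560% of reads in HMLE-TWIST1 cells, against 0.0437, 0.0458 and 0.0483% in HMLE cells. In the day 4 DMSO libraries the shares were 0.480, 0.328 and 0.349% in HMLE-TWIST1 cells, and 0.0631, 0.0784 and 0.0687% in HMLE cells. The lines did not overlap in either case. In the day 2 DMSO libraries the shares were 0.382, 0.331 and 0.347% in HMLE-TWIST1 cells and 0.278, 0.344 and 0.339% in HMLE cells, and here the lines overlapped. In the day 2 scramble libraries the shares were 0.414, 0.382 and 0.423% in HMLE-TWIST1 cells and 0.118, 0.114 and 0.120% in HMLE cells, without overlap. Under control treatments the shares ran from 0.0437 to 0.344% in HMLE cells and from 0.328 to 0.618% in HMLE-TWIST1 cells. In HMLE cells the mean share was 0.320% ± 0.0368 in day 2 DMSO libraries and 0.0459% ± 0.00231 in day 4 scramble libraries (SD, n = 3 each). These were the highest and the lowest of the HMLE control groups, and they differ in both day and treatment. The DMSO and scramble libraries come from parts of the table that were processed separately, so this pair of levels is a description.

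**Figure D1:**
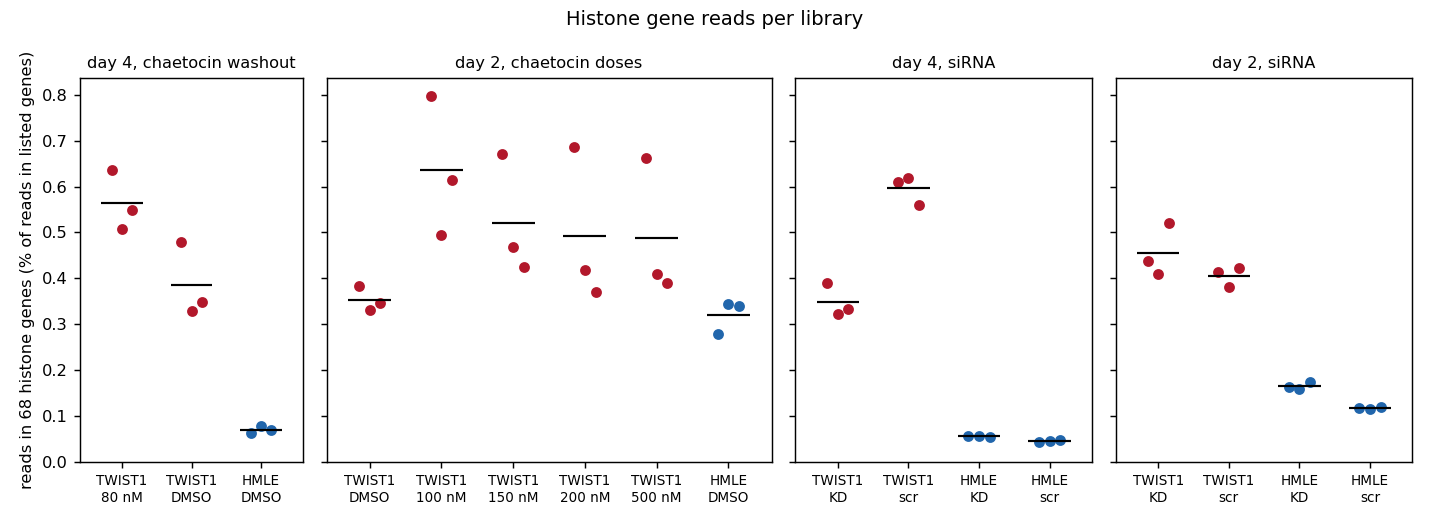
Share of reads in the 68 histone genes (%, vertical axis) in each library, in 4 panels by day and treatment. Points are libraries (red, HMLE-TWIST1, blue, HMLE), and bars are means of 3. HMLE libraries of day 4 all lie at or below 0.0784%, under every HMLE-TWIST1 library.

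Levels per gene were compared in RPKM, which divides by gene length. HIST1H2AJ was the most abundant H2A gene, with a mean of 722 RPKM over all libraries and a range of 24.3 to 1479 RPKM. The leading H3 gene, HIST1H3C, averaged 406 RPKM (11 to 912), and the leading H4 gene, HIST1H4C, averaged 405 RPKM (52.6 to 923). HIST1H1B, which encodes linker histone H1.5, averaged 299.5 RPKM (8.63 to 732). HIST1H2BO, the leading H2B gene, averaged 162 RPKM (4.87 to 319.5). Each of these 5 genes was lowest in an HMLE library of day 4. The reading of single copies has a limit, since many histone genes of 1 class have nearly identical coding sequences. The authors' counting could have left out reads that match several copies or divided them among copies, which would alter the order of genes by level. The testis-specific genes HIST1H1T, HIST1H2AA and HIST1H2BA, with HIST2H2AA4, were listed in the dose part only and entered none of the main tests. HIST1H2BA passed the read filter in a fit of the dose libraries alone. It had 11, 14 and 15 reads in the first replicates at 150, 200 and 500 nM.

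**Figure D2:**
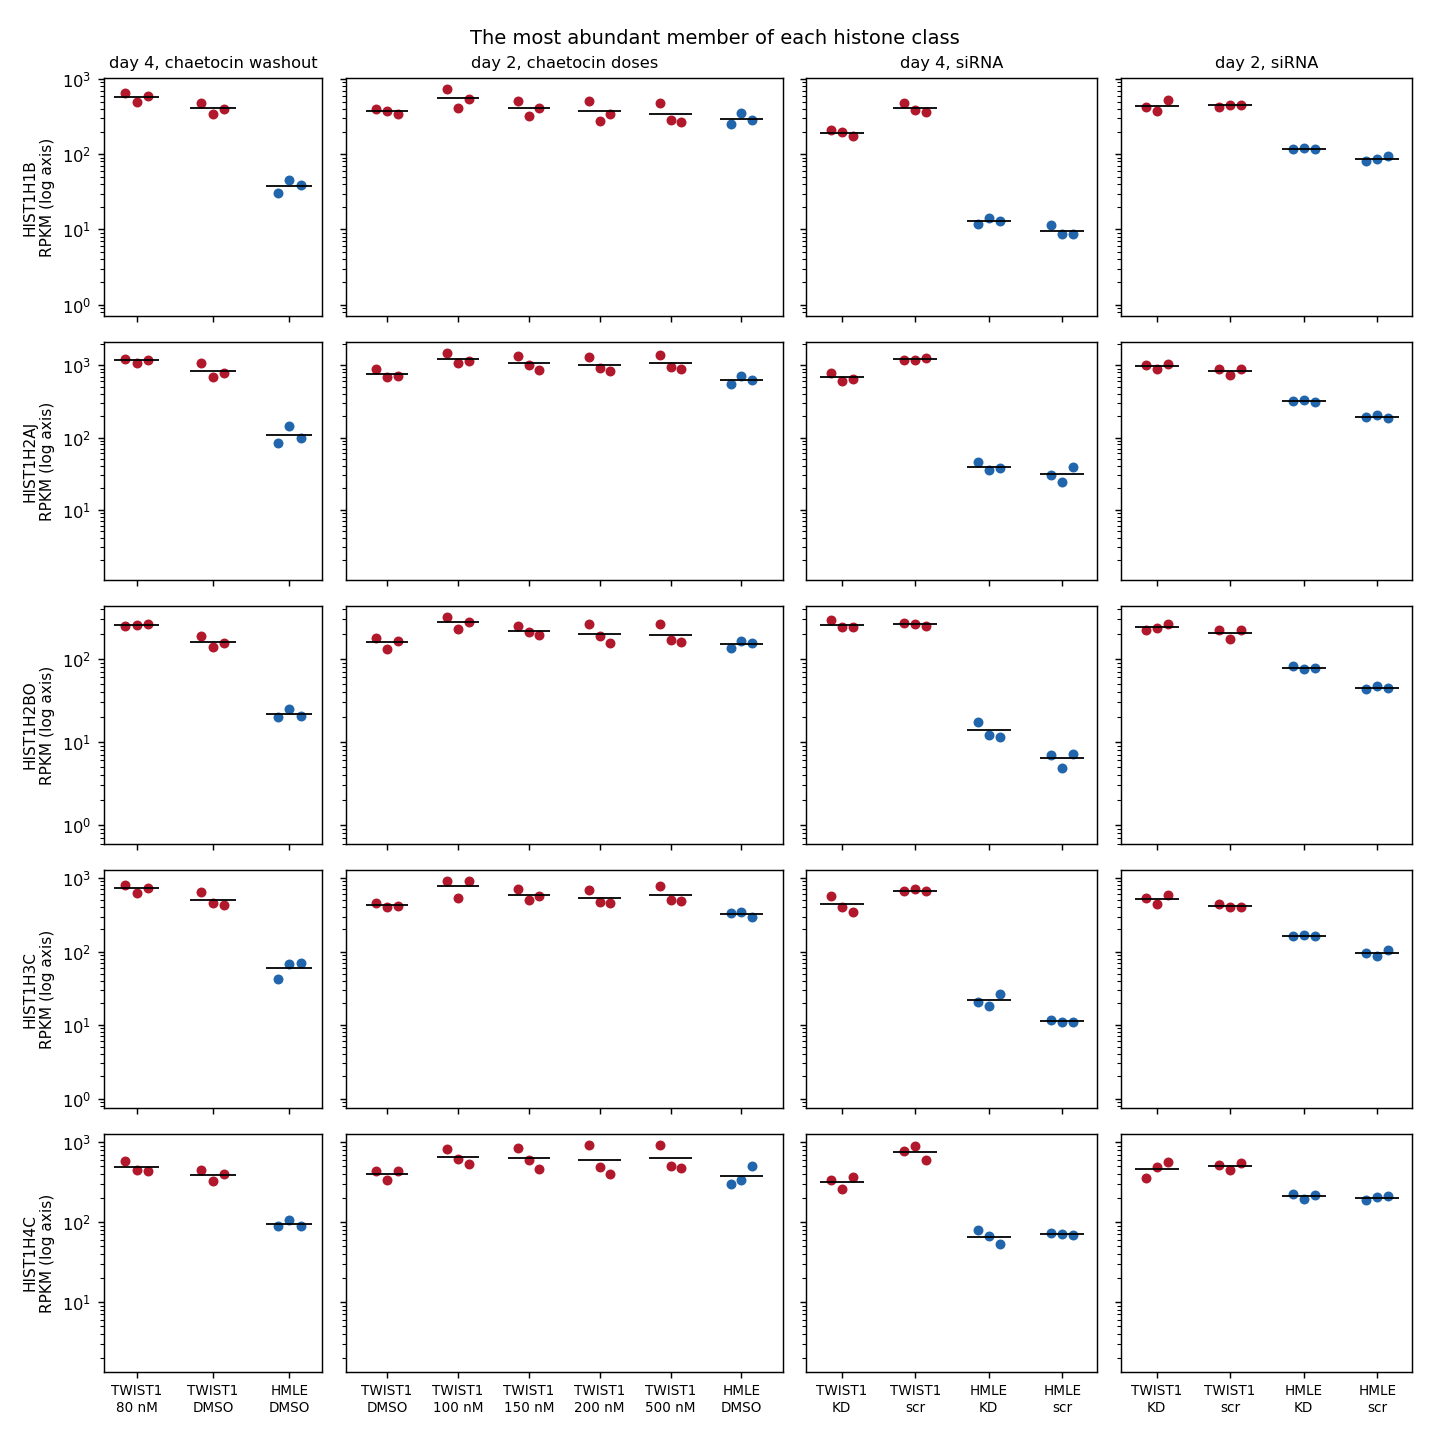
RPKM (log axis) of the most abundant gene of each histone class in every library, by day and treatment. Points are libraries (red, HMLE-TWIST1, blue, HMLE), and bars are means of 3. In the HMLE libraries of day 4 all 5 genes lie below every HMLE-TWIST1 library, and in the day 2 DMSO libraries the 2 lines lie close together.

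The first comparison asks how the TWIST1-expressing line differs from its parent line. Tests used limma on log2 CPM of the recovered reads, with p adjusted by Benjamini and Hochberg over all genes and called below 0.05. On day 4 in scramble libraries, 57 of 60 tested histone genes were higher in HMLE-TWIST1 cells and 1 was lower, against 37.6% of all genes higher and 36.8% lower. The median log2 fold change was 3.52, beside a median near 0 over all genes. HIST1H3C had 665, 710 and 659 RPKM in HMLE-TWIST1 cells, against 11.6, 11 and 11 RPKM in HMLE cells. It was higher by 5.87 on the log2 scale (SE 0.16, adjusted p = 1.2e-12). HIST1H1B had 477, 385 and 359 RPKM in HMLE-TWIST1 cells and 11.4, 8.63 and 8.70 RPKM in HMLE cells (log2 fold change 5.38, SE 0.12, adjusted p = 3.7e-16). Neither gene's groups overlap, and the 3 libraries of each group lie close together.

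The classes differed in degree in that comparison. Median log2 fold changes were 4.44 for H3, 3.82 for H2A, 3.28 for H1, 3.14 for H2B and 2.64 for H4. All 12 H4 genes and all 5 tested H1 genes were higher, as were 13 of 14 H2A, 17 of 18 H2B and 10 of 11 H3 genes. A filter of about 10 reads was passed in both lines by 44 of the 60 genes, and in HMLE-TWIST1 cells alone by 13. All 13 are among the 57 called higher. The 2 genes that did not pass the test were HIST1H3E, an H3 gene, and HIST1H2AC, an H2A gene for which polyadenylated mRNA is described. HIST1H2AC had 46.8, 42.8 and 36.7 RPKM in HMLE-TWIST1 cells, and 35.1, 34.9 and 53.4 RPKM in HMLE cells, so the groups overlap (log2 fold change 0.06). HIST1H3E had 11.2, 11.3 and 10.5 RPKM in HMLE-TWIST1 cells and 11.5, 9.65 and 10.2 RPKM in HMLE cells (log2 fold change 0.07). The gene that was lower, HIST2H2BC, is annotated as a transcribed pseudogene. It had 6.61, 6.27 and 7.31 RPKM in HMLE-TWIST1 cells and 7.70, 10.1 and 12.6 RPKM in HMLE cells (log2 fold change -0.55, adjusted p = 0.012). The call was lost without the third HMLE scramble library of day 4 (adjusted p = 0.082).

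The line difference depended on day and control treatment. In the day 4 DMSO libraries 52 of 58 genes were higher in HMLE-TWIST1 cells and 0 lower, with a median log2 fold change of 2.29, against 33.5% of all genes higher and 33.4% lower. In the day 2 scramble libraries 53 of 59 were higher and 1 lower (median 1.68), against 35.7% and 33.3%. In the day 2 DMSO libraries 8 of 61 were higher and 4 lower (median 0.07), and 24.1% of all genes were higher and 23.2% lower. The deposited values themselves gave 13 higher and 7 lower in that comparison, and leaving out 1 library gave 4 to 8 higher. Genes above the filter of about 10 reads in HMLE-TWIST1 cells alone made up 6 of the 52 calls on day 4 under DMSO, 3 of the 53 on day 2 under scramble and 2 of the 8 on day 2 under DMSO. HIST1H3B, an H3 gene, had 222, 131 and 137 RPKM in HMLE-TWIST1 cells on day 4 under DMSO and 11.1, 14.1 and 12.8 RPKM in HMLE cells (log2 fold change 3.58, SE 0.25, adjusted p = 1.2e-06). HIST1H2BM, an H2B gene, had 36.9, 21 and 28 RPKM in HMLE-TWIST1 cells and 1.2, 3.69 and 1.24 RPKM in HMLE cells there (log2 fold change 3.65). The HMLE values rest on 4, 20 and 5 reads, so this gene is among the 6 above the filter in HMLE-TWIST1 cells alone. In day 2 scramble libraries HIST1H2BM had 35.8, 31.6 and 41.4 RPKM in HMLE-TWIST1 cells and 4.53, 3.26 and 3.86 RPKM in HMLE cells. Its groups did not overlap in either comparison. The linker histone gene HIST1H1D had 92.6, 91.3 and 102 RPKM in HMLE-TWIST1 cells and 15.7, 17.4 and 15.4 RPKM in HMLE cells in the day 2 scramble libraries (log2 fold change 2.59, adjusted p = 1.2e-14).

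The HIST3 pair on chromosome 1 and the lone HIST4 gene were among the few genes lower in HMLE-TWIST1 cells on day 2 under DMSO. HIST3H2A had 6.68, 7.11 and 5.61 RPKM in HMLE-TWIST1 cells under DMSO on day 2, against 17.1, 19.4 and 13.9 RPKM in HMLE cells (log2 fold change -1.34, SE 0.29, adjusted p = 0.00099). HIST3H2BB, its H2B neighbour, had 5.11, 5.69 and 2.91 RPKM in HMLE-TWIST1 cells and 8.42, 14 and 10.1 RPKM in HMLE cells (log2 fold change -1.21, adjusted p = 0.0069). The groups of both genes do not overlap. HIST4H4 had 4.75, 3.88 and 3.99 RPKM in HMLE-TWIST1 cells and 6.33, 8 and 9.03 RPKM in HMLE cells (log2 fold change -0.88, adjusted p = 0.0083). The linker gene HIST1H1A had 36.3, 27.2 and 31.1 RPKM in HMLE-TWIST1 cells and 48.5, 45.1 and 47.3 RPKM in HMLE cells (log2 fold change -0.60, adjusted p = 0.0046). These 4 were the genes called lower, and each call held without any single library. HIST3H2A was also the gene called lower in the day 2 scramble libraries, with 6.59, 5.58 and 7.07 RPKM in HMLE-TWIST1 cells and 9.45, 9.61 and 10.2 RPKM in HMLE cells (log2 fold change -0.55). The other three did not keep that direction under scramble. HIST1H1A was higher there, with 52.4, 50.2 and 51.1 RPKM in HMLE-TWIST1 cells and 20.7, 20.6 and 20.8 RPKM in HMLE cells (log2 fold change 1.34). HIST4H4 had 5.54, 5.92 and 9.69 RPKM in HMLE-TWIST1 cells and 5.88, 5.45 and 5.01 RPKM in HMLE cells, with overlap (log2 fold change 0.37, adjusted p = 0.16). HIST3H2BB had 4.82, 3.97 and 5.23 RPKM in HMLE-TWIST1 cells and 4.88, 3.93 and 5.72 RPKM in HMLE cells, also with overlap (adjusted p = 0.998). The difference between the arms was not tested. Genes higher under DMSO on day 2 included HIST1H2BE, with 15.8, 11.8 and 12.3 RPKM in HMLE-TWIST1 cells and 6.03, 7.60 and 6.2 RPKM in HMLE cells (log2 fold change 0.95, adjusted p = 0.0014). HIST1H2BM had 33.6, 33.4 and 31 RPKM in HMLE-TWIST1 cells and 15.3, 17.9 and 15.5 RPKM in HMLE cells (log2 fold change 0.98, adjusted p = 0.011). HIST1H4I, an H4 gene at a low level, had the largest log2 fold change there (2.88), with 1.94, 1.64 and 1.67 RPKM in HMLE-TWIST1 cells and 0.0545, 0.153 and 0.181 RPKM in HMLE cells. It held 26, 30 and 29 reads in HMLE-TWIST1 cells and 1, 3 and 3 in HMLE cells. Of the 2 lines it was above the read filter in HMLE-TWIST1 cells alone. The HIST1H2BM call was lost without the first HMLE DMSO library of day 2 (adjusted p = 0.051). Without that library the count of genes higher dropped to 4.

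**Figure D3:**
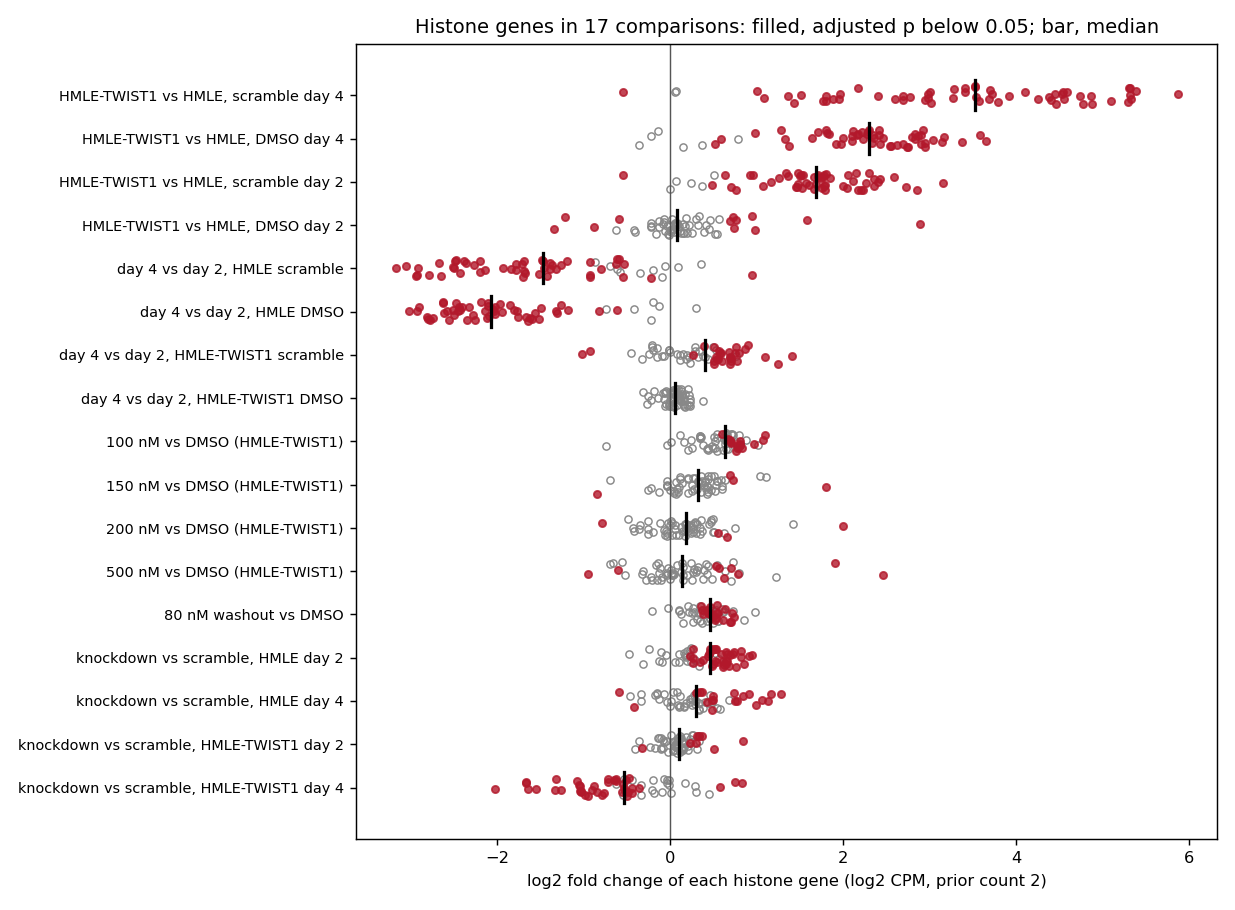
Log2 fold change (horizontal axis) of every tested histone gene in 17 comparisons, 1 row each. Filled red points passed an adjusted p of 0.05, open points did not, and the bar is the median. Line differences on day 4 lie to the right (medians 3.52 and 2.29), HMLE day 4 against day 2 lies to the left (-1.47 and -2.07), and the HMLE-TWIST1 knockdown of day 4 lies to the left (-0.54).

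In HMLE cells the histone genes were lower on day 4 than on day 2 in each treatment arm. In scramble libraries 49 of 60 were lower and 1 higher (median log2 fold change -1.47), against 20.6% of all genes lower and 21.7% higher. In DMSO libraries 52 of 58 were lower and 0 higher (median -2.07), against 15.4% lower and 20.6% higher. In knockdown libraries 48 of 60 were lower and 2 higher (median -1.76), against 23.4% lower and 23.6% higher. Genes above the read filter on day 2 alone made up 10 of the 49 falls in scramble, 4 of the 52 in DMSO and 7 of the 48 in knockdown libraries. HIST1H1B had 11.4, 8.63 and 8.70 RPKM on day 4 and 81, 87.5 and 93.9 RPKM on day 2 in scramble libraries (log2 fold change -3.17, SE 0.12, adjusted p = 4.2e-15). In DMSO libraries it had 30.5, 45.9 and 38.5 RPKM on day 4 and 252, 349 and 282 RPKM on day 2 (log2 fold change -2.92, SE 0.17, adjusted p = 1.7e-07). No day 4 library overlaps a day 2 library of the same arm. HIST1H3C had 11.6, 11 and 11 RPKM on day 4 and 95.3, 87.4 and 105 RPKM on day 2 in scramble libraries (log2 fold change -3.05). HIST1H3B had 11.1, 14.1 and 12.8 RPKM on day 4 and 91.1, 114 and 114 RPKM on day 2 in DMSO libraries (log2 fold change -3.02). In knockdown libraries HIST1H3B had 4.79, 5.37 and 3.04 RPKM on day 4 and 40.9, 45.3 and 49.4 RPKM on day 2 (log2 fold change -3.35, adjusted p = 3.5e-13). HIST1H1A had 4.17, 2.88 and 2.08 RPKM on day 4 and 31.2, 29.8 and 28.1 RPKM on day 2 there (log2 fold change -3.30). H3 genes fell most in scramble libraries (median -2.39), followed by H2A (-1.74), H2B (-1.41), H1 (-1.37) and H4 (-1.10). The HIST1 cluster had a median of -1.69 there, HIST2 of -0.58 and HIST3 of -0.20. A day 4 library had longer in culture and a change of medium behind it, and these cannot be told apart. In the DMSO arm the exposure differed too, with 48 h of DMSO on day 2 and 15 h on day 4. The contrast between days is therefore not the same in the DMSO and siRNA arms.

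A group of 6 genes for which polyadenylated mRNA is described outside S phase (HIST1H1C, HIST1H2AC, HIST1H2BD, HIST1H2BJ, HIST1H2BK and HIST2H2BE) had smaller falls in scramble libraries. Of the 6, 4 were lower and 1 was higher (median -0.39), while 45 of the other 54 were lower (median -1.59). In DMSO libraries 5 of the 6 were lower (median -1.41), beside 47 of the other 52 (median -2.10). The difference between these sets was not tested. HIST1H2AC rose in the scramble libraries to 35.1, 34.9 and 53.4 RPKM on day 4, against 17.9, 22.2 and 22.8 RPKM on day 2 (log2 fold change 0.94, SE 0.16, adjusted p = 6e-05). In knockdown libraries it had 38.9, 53.8 and 58.6 RPKM on day 4 and 21.8, 22.9 and 25.2 RPKM on day 2 (log2 fold change 1.03, adjusted p = 1.7e-05). In DMSO libraries it had 25.8, 18.8 and 17.7 RPKM on day 4 and 25.9, 23.6 and 21.9 RPKM on day 2, with overlap (log2 fold change -0.20, adjusted p = 0.45). HIST2H2BE had 13.8, 15.5 and 15.1 RPKM on day 4 and 14.8, 12 and 14.9 RPKM on day 2 in scramble libraries (log2 fold change 0.09, adjusted p = 0.61). In knockdown libraries HIST2H2BE rose to 24.7, 26.8 and 24 RPKM on day 4, against 14.8, 15.0 and 16.3 RPKM on day 2 (log2 fold change 0.65, adjusted p = 0.0003). In DMSO libraries it fell to 13.2, 9.59 and 11.7 RPKM on day 4, against 29, 36 and 34.5 RPKM on day 2 (log2 fold change -1.51, adjusted p = 6.1e-05). HIST1H2BJ, also in this group, behaved like the majority, with 4.15, 4.13 and 5.73 RPKM on day 4 and 21.1, 18.9 and 22.7 RPKM on day 2 in scramble libraries (log2 fold change -2.14). HIST1H2AC carries the same stem-loop letters as HIST1H2AI, printed above, which had 29.7, 20.4 and 32.7 RPKM in scramble libraries of day 4.

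**Figure D4:**
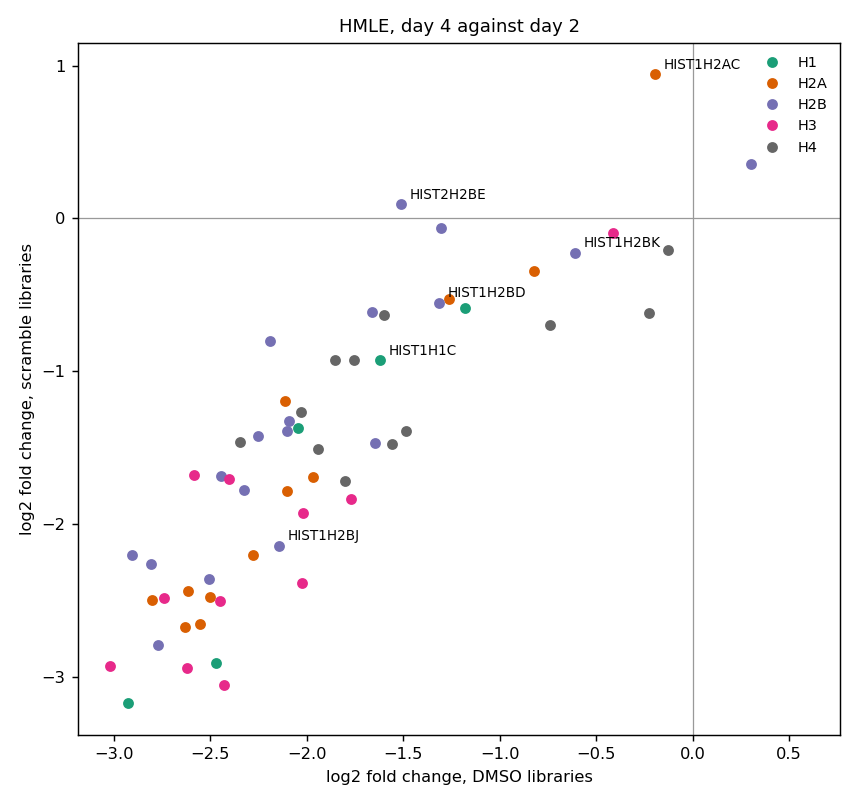
Log2 fold change of each of 58 histone genes in HMLE cells, day 4 over day 2, in DMSO libraries (horizontal axis) and scramble libraries (vertical axis), coloured by class. Of the 58 genes 55 lie below 0 on both axes. The 6 labelled genes are those with described polyadenylated mRNA.

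The DMSO and scramble arms share no library, so their day 4 over day 2 changes can be set side by side. Across 58 genes the log2 fold changes in HMLE cells had a Pearson r of 0.863 and a Spearman rho of 0.867. This is a description across genes, which are not independent replicates and share library depth within an arm. Below 0 in both arms were 55 genes, and 1 was above 0 in both.

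The lines differed in this change of levels between days. In the DMSO libraries of HMLE-TWIST1 cells 0 of 58 genes were called in either direction between day 4 and day 2 by limma, and 0 had an unadjusted p under 0.05. Over all genes 0.147% were called higher and 0.204% lower. HIST1H3C had 642, 458 and 424 RPKM on day 4 and 465, 407 and 412 RPKM on day 2 (log2 fold change 0.22, adjusted p = 0.70). In scramble libraries 27 of 60 genes were higher on day 4 and 2 lower (median 0.40), against 13.6% of all genes higher and 15.5% lower. HIST1H2AI had 1115, 1060 and 1092 RPKM on day 4 and 532, 464 and 530 RPKM on day 2 (log2 fold change 1.09, SE 0.16, adjusted p = 2.9e-05). HIST3H2A had 13.7, 17.4 and 15.9 RPKM on day 4 and 6.59, 5.58 and 7.07 RPKM on day 2 (log2 fold change 1.24, adjusted p = 2.1e-07). The groups of both genes do not overlap. HIST1H4L, an H4 gene, had 58.8, 82.2 and 66 RPKM on day 4 and 138, 134 and 142 RPKM on day 2 (log2 fold change -1.02, adjusted p = 0.0008). HIST1H1A had 24.5, 26.4 and 30.1 RPKM on day 4 and 52.4, 50.2 and 51.1 RPKM on day 2 (log2 fold change -0.93). The test of the difference between lines in the scramble arm called 51 of 60 genes higher for HMLE-TWIST1 minus HMLE and 0 lower (median 1.73), against 16.6% and 17.8% of all genes. In HMLE scramble libraries 44 of these 60 genes were above the read filter on both days, 10 on day 2 alone and 6 on neither day. The same difference was not tested in the DMSO and knockdown arms. For HIST1H3C the difference was 3.74 on the log2 scale (SE 0.20, adjusted p = 2.4e-11). For HIST1H3G, another H3 gene, it was 3.73 (SE 0.23). HIST1H3G had 80.9, 82.5 and 74.9 RPKM on day 4 and 45.5, 45.2 and 45.7 RPKM on day 2 in HMLE-TWIST1 cells, and 1.83, 1.31 and 1.93 RPKM on day 4 and 17.7, 13.1 and 14.9 RPKM on day 2 in HMLE cells. So this gene was higher on day 4 in one line and lower on day 4 in the other, with no overlap in either. Its HMLE values of day 4 rest on 9, 7 and 8 reads, under the filter of about 10 reads.

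In knockdown libraries of HMLE-TWIST1 cells 30 of 60 genes were lower on day 4 and 5 higher (median -0.40), against 14% of all genes lower and 14.7% higher. HIST1H3E had 2.74, 3.10 and 5.18 RPKM on day 4 and 12.3, 13.3 and 11.2 RPKM on day 2 (log2 fold change -1.69, adjusted p = 4.3e-07). HIST1H4B, an H4 gene, had 33.7, 29.6 and 37.9 RPKM on day 4 and 91.7, 91.3 and 113 RPKM on day 2 (log2 fold change -1.53, adjusted p = 5.9e-09). The 5 genes that were higher included both HIST3 genes. HIST3H2A had 26.5, 21.2 and 23.3 RPKM on day 4 and 8.83, 7.32 and 8.38 RPKM on day 2 (log2 fold change 1.5), and HIST3H2BB had 24.2, 20.1 and 23 RPKM on day 4 and 7.61, 7.62 and 11.2 RPKM on day 2 (log2 fold change 1.33). The other three were HIST1H2BJ (log2 fold change 0.47), HIST1H2BE (0.59) and HIST2H2AA3 (1.47, at most 1.07 RPKM on day 4). The HIST1H2BE call was kept in 1 of 6 fits that each left out 1 library, and the count of genes higher dropped to 2 without the first knockdown library of day 4.

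Knockdown of SUV39H1 and SUV39H2, writers of H3 lysine 9 methylation in heterochromatin, was compared with scramble siRNA within each line and day. In HMLE cells on day 2, 36 of 59 histone genes were higher under knockdown and 0 lower (median 0.46), against 14.1% of all genes higher and 14.7% lower. The 36 comprised 4 of 5 H1, 8 of 13 H2A, 12 of 18 H2B, 9 of 11 H3 and 3 of 12 H4 genes. HIST1H3J, an H3 gene, had 11.1, 11.1 and 12.6 RPKM under knockdown and 6.22, 6.91 and 5.11 RPKM under scramble (log2 fold change 0.95, SE 0.12, adjusted p = 1.1e-05). HIST1H2BJ had 36.5, 38.5 and 40.6 RPKM under knockdown and 21.1, 18.9 and 22.7 RPKM under scramble (log2 fold change 0.91, SE 0.09, adjusted p = 5.5e-07). HIST1H3C had 164, 169 and 161 RPKM under knockdown and 95.3, 87.4 and 105 RPKM under scramble (log2 fold change 0.81). In all 3 genes every knockdown library lies above every scramble library. HIST1H4C had 225, 194 and 216 RPKM under knockdown and 188, 208 and 209 RPKM under scramble, with overlap (log2 fold change 0.10, adjusted p = 0.66).

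On day 4 in HMLE cells 18 of 60 genes were higher under knockdown and 2 lower (median 0.30), against 11.7% of all genes higher and 14.4% lower. H2B genes made up 12 of the 18. HIST1H2BJ had 10.3, 11.3 and 10.5 RPKM under knockdown and 4.15, 4.13 and 5.73 RPKM under scramble (log2 fold change 1.17, SE 0.14, adjusted p = 2e-05). HIST1H2BO had 17.6, 12.3 and 11.5 RPKM under knockdown and 6.92, 4.87 and 7.24 RPKM under scramble (log2 fold change 1.06, adjusted p = 0.00013). Both genes lacked overlap. The genes called lower encode H4. HIST1H4B had 15.0, 9.99 and 9.65 RPKM under knockdown and 18.9, 20.1 and 13.3 RPKM under scramble, with overlap (log2 fold change -0.60, adjusted p = 0.020). HIST1H4H had 3.76, 4.08 and 3.61 RPKM under knockdown and 5.79, 4.65 and 4.90 RPKM under scramble (log2 fold change -0.42, adjusted p = 0.034). Of the 6 fits that each left out 1 library, 2 kept the call of HIST1H4B and 2 that of HIST1H4H, and the count of genes lower reached 0 without the first HMLE scramble library of day 4. Levels were low here, since 14 of the 60 genes were under the filter in both groups.

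In HMLE-TWIST1 cells the knockdown gave few calls on day 2 and lower histone RNA on day 4. On day 2, 7 of 59 genes were higher and 1 lower (median 0.10), against 7.53% of all genes higher and 8.26% lower. The count of genes higher ran from 3 without the second scramble library to 9 without the second knockdown library. HIST2H2AC, an H2A gene, had 221, 169 and 238 RPKM under knockdown and 154, 135 and 146 RPKM under scramble (log2 fold change 0.51, adjusted p = 0.0037). HIST1H2BJ had 89.5, 85.9 and 95.1 RPKM under knockdown and 78.6, 62.1 and 68.6 RPKM under scramble (log2 fold change 0.37). HIST1H1A was the gene called lower, with 42.2, 41.6 and 39.2 RPKM under knockdown and 52.4, 50.2 and 51.1 RPKM under scramble (log2 fold change -0.33, adjusted p = 0.0047).

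On day 4 in HMLE-TWIST1 cells 37 of 60 genes were lower under knockdown and 3 higher (median -0.54), against 19% of all genes lower and 19% higher. Groups did not overlap for 42 genes that were lower and 3 that were higher, against 26.8% and 26.6% of all genes. HIST1H2AI had 312, 250 and 251 RPKM under knockdown and 1115, 1060 and 1092 RPKM under scramble (log2 fold change -2.03, SE 0.19, adjusted p = 9e-06). HIST1H4B had 33.7, 29.6 and 37.9 RPKM under knockdown and 109, 118 and 92.5 RPKM under scramble (log2 fold change -1.66, SE 0.18, adjusted p = 1.1e-06). HIST1H2BD had 87.4, 70.5 and 76.4 RPKM under knockdown and 240, 249 and 235 RPKM under scramble (log2 fold change -1.65, SE 0.12, adjusted p = 5.4e-08). These 3 genes belong to 3 classes, and the libraries of each group lie close together and far from the other group. The linker histone gene HIST1H1C had 199, 179 and 173 RPKM under knockdown and 521, 435 and 418 RPKM under scramble (log2 fold change -1.33, adjusted p = 3.3e-10). HIST1H3E, which did not pass the test between the lines, had 2.74, 3.10 and 5.18 RPKM under knockdown and 11.2, 11.3 and 10.5 RPKM under scramble (log2 fold change -1.55, adjusted p = 1.8e-05). Summed mesenchymal markers moved in the same libraries, with 11145, 10940 and 11063 CPM under knockdown and 22499, 20682 and 20801 CPM under scramble. Of the 9 markers 3 were lower and 1 higher (median -0.21). Summed mammary epithelial markers were at 98.7 to 106.5 CPM under knockdown and 69.1 to 73.6 CPM under scramble, with 4 of 9 higher and 1 lower. The part of these markers in the histone result was not tested. By class the median was -0.95 for H3, -0.76 for H1, -0.67 for H2A, -0.58 for H4 and -0.46 for H2B.

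Of the 60 genes 20 passed the test in neither direction, among them the leading H2B gene. HIST1H2BO had 291, 241 and 246 RPKM under knockdown and 271, 263 and 251 RPKM under scramble, with overlap (log2 fold change -0.03, adjusted p = 0.91). HIST1H2BJ had 154, 124 and 102 RPKM under knockdown and 126, 142 and 122 RPKM under scramble, also with overlap (log2 fold change -0.07). The genes called higher were both HIST3 genes and HIST1H2BM. HIST3H2BB had 24.2, 20.1 and 23 RPKM under knockdown and 10.9, 14.1 and 14.2 RPKM under scramble (log2 fold change 0.75, adjusted p = 0.0018). HIST3H2A had 26.5, 21.2 and 23.3 RPKM under knockdown and 13.7, 17.4 and 15.9 RPKM under scramble (log2 fold change 0.57, adjusted p = 0.0079). HIST1H2BM had 45.3, 45.4 and 52.6 RPKM under knockdown and 31.4, 28 and 20.9 RPKM under scramble (log2 fold change 0.83, adjusted p = 0.026), a call lost without the third scramble library (adjusted p = 0.098). In every one of these 3 genes all knockdown libraries lie above all scramble libraries. Among H2A and H2B genes, the 22 with an octamer in the promoter window had a median of -0.49 (range -1.05 to 0.83), with 14 lower and 1 higher. The 8 without one had a median of 0.05 (range -2.03 to 0.75), with 3 lower and 2 higher. The largest fall, that of HIST1H2AI, was thus in a gene without the octamer. This is a description with no test.

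The lines differed in their response to the knockdown. On day 4 the test of HMLE-TWIST1 minus HMLE called 38 of 60 genes lower and 0 higher (median -0.89), against 10.7% of all genes lower and 12.2% higher. In HMLE cells 44 of these 60 genes were above the read filter in both groups and 14 in neither. For genes under the filter the HMLE side of the difference rests on few reads. How many of the 38 calls these make up was not counted. HIST1H2BD had 36.7, 38.7 and 47.1 RPKM under knockdown and 31.5, 25.9 and 37 RPKM under scramble in HMLE cells, so the difference between the lines' log2 fold changes was -2.01 (SE 0.17, adjusted p = 1.6e-06). HIST1H2AI had 21.3, 27.9 and 32.1 RPKM under knockdown and 29.7, 20.4 and 32.7 RPKM under scramble in HMLE cells, and the difference was -2.0 (SE 0.26, adjusted p = 0.00039). In HMLE cells the groups of both genes overlap, while in HMLE-TWIST1 cells they lie far apart. On day 2 the same test called 17 of 59 genes lower and 0 higher (median -0.33), against 5.83% and 6.36% of all genes. HIST1H1A led with a difference of -0.87 (SE 0.10, adjusted p = 4.1e-05), having 31.2, 29.8 and 28.1 RPKM under knockdown and 20.7, 20.6 and 20.8 RPKM under scramble in HMLE cells. HIST1H3J followed with -0.81 (SE 0.17, adjusted p = 0.0036). The day 2 count was 10 without the first HMLE-TWIST1 knockdown library. The scatter of day 4 responses shows 40 of 60 genes below 0 in HMLE-TWIST1 alone, 12 below 0 in both lines and 8 above 0 in both. Across these 60 genes Pearson r was 0.579 and Spearman rho 0.510, again a description across genes.

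**Figure D5:**
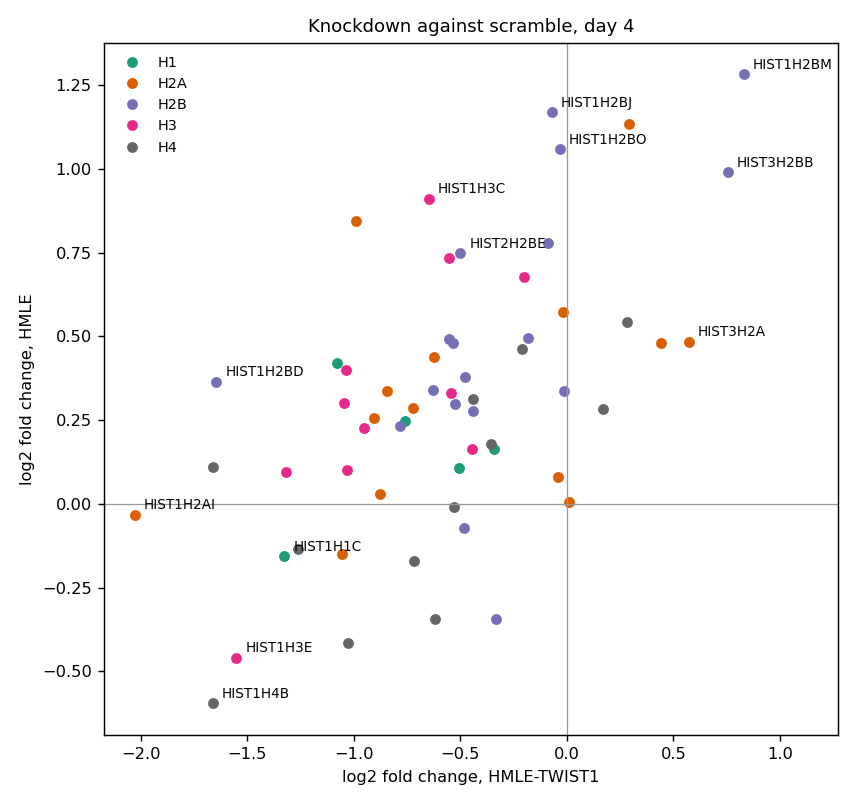
Log2 fold change of 60 histone genes on day 4, knockdown over scramble, in HMLE-TWIST1 cells (horizontal axis) and HMLE cells (vertical axis), coloured by class, with genes named in the text labelled. The largest group, 40 genes, lies in the upper left, below 0 in HMLE-TWIST1 and above 0 in HMLE.

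Chaetocin was tested in HMLE-TWIST1 cells only. The dose libraries and the DMSO libraries stand in parts of the table that were processed separately, so part and dose cannot be told apart in any comparison with DMSO. At 100 nM 16 of 61 histone genes were higher and 0 lower (median log2 fold change 0.64), against 11.9% of all genes higher and 11.8% lower. At 150 nM 3 were higher and 1 lower (median 0.32), against 17.8% and 16.5% of all genes. At 200 nM 3 were higher and 1 lower (median 0.18), against 20.9% and 19.1%. At 500 nM 7 were higher and 2 lower (median 0.13), against 26% and 24.8%. Processed pseudogenes with few reads are among the tested genes. In the 6 comparisons of the day 2 DMSO and dose libraries, HIST1H2BPS2 was called higher in 3 and HIST1H3PS1 in 1. HIST1H2BPS2 held 0, 1 and 3 reads under DMSO, 12, 13 and 3 at 150 nM, and 11, 11 and 6 at 200 nM. HIST1H3PS1 held 2, 1 and 1 reads under DMSO and 44, 26 and 2 at 500 nM. The replicate numbers pair the dose libraries, whose same-numbered deviations correlated at r = 0.299 to 0.852 between doses. Between dose and HMLE-TWIST1 DMSO libraries these correlations were -0.112 to 0.138, so the replicate numbers did not pair there. With the replicate number as a block the genes higher were 26, 11, 9 and 11 at 100, 150, 200 and 500 nM. The genes lower were then 1, 1, 1 and 4. These block counts assume a pairing of dose with DMSO libraries that the correlations did not show. Without the block the 100 nM count was 3 without the second DMSO library of day 2 and 25 without the second 100 nM library. The libraries of a dose were spread widely. Histone genes took 0.382, 0.331 and 0.347% of reads under DMSO, and 0.798, 0.495 and 0.615% with 100 nM. The 150 nM libraries had 0.671, 0.468 and 0.425%, the 200 nM libraries 0.687, 0.418 and 0.370%, and the 500 nM libraries 0.663, 0.409 and 0.390%. The first replicate of every dose was the highest. Summed mesenchymal markers moved too, with 26749 to 31411 CPM under DMSO, 9072 to 18253 CPM at 100 nM and 7046 to 9135 CPM at 500 nM. Of the 9 markers, 0 were higher and 4 lower at 100 nM, and 0 higher and 5 lower at 500 nM. Their part in the histone results was not tested.

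HIST1H2BJ was called higher at every dose. It had 66.7, 61 and 58.6 RPKM under DMSO. Chaetocin libraries had 166, 105 and 138 RPKM (100 nM), 128, 93.9 and 95.1 RPKM (150 nM), 125, 87.1 and 73.3 RPKM (200 nM) and 129, 83.6 and 86.7 RPKM (500 nM). Every treated library lies above every DMSO library. Its log2 fold change was 1.09 at the lowest of these doses (SE 0.20, adjusted p = 0.0012). It was 0.73 with 150 nM (adjusted p = 0.010), 0.55 with 200 nM (adjusted p = 0.038) and 0.62 with 500 nM (adjusted p = 0.017). The 100 nM call held without any single library, whereas at 200 nM 1 of 6 such fits kept it. HIST1H2AL, an H2A gene, had 122, 67.5 and 90.7 RPKM at 100 nM and 38.2, 53.8 and 37.1 RPKM under DMSO (log2 fold change 1.07, adjusted p = 0.020), lost without the first 100 nM library (adjusted p = 0.094). HIST1H2BG, an H2B gene, had 250, 184 and 147 RPKM at 150 nM and 257, 166 and 168 RPKM at 500 nM, against 144, 94.1 and 113 RPKM under DMSO (log2 fold changes 0.69 and 0.70). HIST1H2BK had 178, 130 and 123 RPKM at 500 nM and 83.8, 80.6 and 77 RPKM under DMSO (log2 fold change 0.78, adjusted p = 0.017). These calls were lost without the first library of the dose. Adjusted p was then 0.16 and 0.10 for HIST1H2BG at 150 and 500 nM, and 0.076 for HIST1H2BK.

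Against these, HIST1H3E was lower at the upper 3 doses. It had 12, 8.59 and 9.03 RPKM under DMSO. Chaetocin libraries had 7.86, 4.27 and 5.70 RPKM (100 nM), 6.23, 5.73 and 4.26 RPKM (150 nM), 6.69, 5.59 and 4.69 RPKM (200 nM) and 7.72, 5.11 and 3.10 RPKM (500 nM). All 12 treated libraries lie below all DMSO libraries. With 100 nM the log2 fold change was -0.74 (adjusted p = 0.065). It was -0.85 with 150 nM (adjusted p = 0.027), -0.79 with 200 nM (adjusted p = 0.033) and -0.95 with 500 nM (adjusted p = 0.0094). Leaving out 1 library ended the call at each of the upper 3 doses, with adjusted p of up to 0.11, 0.13 and 0.062. HIST1H1D, a linker histone gene, was lower at 500 nM, with 71.2, 37.7 and 34.7 RPKM at that dose and 76.4, 60.7 and 66 RPKM under DMSO, with overlap (log2 fold change -0.61, adjusted p = 0.033). It kept its call in 1 of 6 such fits. Without the first 500 nM library 1 gene was higher and 6 were lower at that dose, and without the third 500 nM library 0 were lower.

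The 500 and 100 nM libraries lie in 1 part of the table and could be compared directly. At 500 nM 7 of 61 genes were lower than at 100 nM and 0 higher (median -0.49), against 7.91% of all genes lower and 9.04% higher. With the replicate number as a block 19 were lower and 1 higher. The dose libraries fitted alone with that block gave 39 lower of 62 and 2 higher, and the deposited values gave 0 lower. The count of genes lower ran from 0 without the third 100 nM or the second 500 nM library to 23 without the first 500 nM library. The HIST2 cluster held 5 of the 7 calls made without the block, 5 of the 19 with it, and 5 of the 39 in the dose libraries alone, out of 6 tested HIST2 genes. HIST1 genes gave 2, 14 and 33 of these calls, so most calls with the block lay in HIST1. HIST2H2AC, HIST2H2BE, HIST2H2AB, HIST2H3D and HIST2H2BF had log2 fold changes of -1.04, -1.0, -0.94, -0.94 and -0.70. HIST2H2BE had 34, 19.1 and 19.7 RPKM at 500 nM and 54.9, 27.9 and 64.4 RPKM at 100 nM, with overlap (adjusted p = 0.031). HIST1H2BH had 116, 71.3 and 61.2 RPKM at 500 nM and 182, 119 and 128 RPKM at 100 nM (log2 fold change -0.83, adjusted p = 0.035), without overlap.

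After the short 80 nM exposure and washout, 20 of 58 genes were higher than in day 4 DMSO libraries and 0 lower (median 0.46), against 19.4% of all genes higher and 17.3% lower. These libraries share 1 part of the table. HIST1H2BO had 253, 257 and 263 RPKM after 80 nM and 191, 140 and 154 RPKM after DMSO (log2 fold change 0.70, SE 0.11, adjusted p = 0.00025). HIST1H2BJ had 117, 116 and 113 RPKM after 80 nM and 93.9, 68.6 and 52.6 RPKM after DMSO (log2 fold change 0.74, SE 0.18, adjusted p = 0.0085). Every treated library of both genes lies above every DMSO library. Summed mesenchymal markers were at 14019 to 20461 CPM after 80 nM and 25989 to 32391 CPM after DMSO, with 4 of 9 lower and 0 higher, and their part in the result was not tested. H2B genes gave 7 of the 20 calls, H3 genes 4, and H1, H2A and H4 genes 3 each. The DMSO libraries decided much of the count, which was 5 without DMSO replicate 3 and 39 without DMSO replicate 1. The first DMSO library had the highest histone share of the 3, 0.480% against 0.328 and 0.349%.

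Genes that act with the histone genes were followed in the same tests. The shares of all genes called in each comparison are those given above beside the histone counts. A list of 27 mitotic genes, for example MKI67, moved with the histone genes in several comparisons. It was higher in HMLE-TWIST1 cells than in HMLE cells for all 27 genes on day 4 under scramble (median 3.72) and under DMSO (median 2.23), and for 26 on day 2 under scramble (median 1.87). Under DMSO on day 2 it was called for 0 genes by limma in either direction (median 0.03). In HMLE cells it was lower on day 4 for 26 genes in scramble libraries (median -2.20) and for 27 in DMSO libraries (median -2.11). Summed mitotic levels were 622, 465 and 551 CPM in HMLE scramble libraries of day 4 and 2706, 2426 and 2269 CPM on day 2. MKI67, a marker of cycling cells, fell by 2.44 in scramble and 2.39 in DMSO libraries, and RRM2, a ribonucleotide reductase subunit of S phase, fell by 2.04 and 2.24. CDKN1A, the cyclin-dependent kinase inhibitor p21, rose by 1.68 and 1.82. The part of the cell cycle genes in the histone results was not tested.

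The lists did not move together everywhere. In HMLE-TWIST1 scramble libraries 27 histone genes were higher on day 4 than on day 2, while 13 of 27 mitotic genes were lower (median -0.30) and 22 of 44 DNA replication genes were lower and 1 higher (median -0.23). In the HMLE-TWIST1 knockdown of day 4, 17 mitotic genes were lower and 0 higher (median -0.41), while 12 replication genes were higher and 7 lower (median 0.06). In the HMLE knockdown of day 2, 22 mitotic genes were higher (median 0.44). In that of day 4, 1 was higher (median 0.09) beside 18 histone genes. With chaetocin, mitotic genes were higher for 23, 22, 23 and 19 of 27 at 100, 150, 200 and 500 nM (medians 0.71, 0.68, 0.70 and 0.61), while 3 histone genes each were called higher at 150 and 200 nM. After the 80 nM washout 23 mitotic genes and 20 replication genes were higher.

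Of 24 genes for histone mRNA transcription and 3′ end processing, 17 were higher and 3 lower in HMLE-TWIST1 scramble libraries of day 4 than in HMLE ones (median 0.51). Over all genes 37.6% were higher and 36.8% lower there. SLBP, the stem-loop binding protein, was higher there by 0.51, and LSM11, a U7 snRNP subunit, by 0.51. NPAT was higher by 0.25. E2F1, a transcription factor of the G1 to S transition, was higher by 2.01, and the phosphatase gene CDC25A by 1.90. Between days in HMLE cells 9 of the 24 were lower and 2 higher in scramble libraries (median -0.13), against 20.6% and 21.7% of all genes. SLBP fell by 0.49 there and by 0.38 in DMSO libraries, and NPAT had log2 fold changes of -0.07 and -0.08, which did not pass the test. In the HMLE-TWIST1 knockdown of day 4, 8 of the 24 were higher and 3 lower (median 0.12), against 19% of all genes in each direction. NPAT was higher there by 0.24, LSM11 by 0.44 and CDC25A by 0.80. SLBP had a log2 fold change of 0.13 there and did not pass the test.

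Histone chaperones, which hand histones to DNA, were higher in HMLE-TWIST1 than HMLE scramble libraries of day 4 for 15 of 21 genes and lower for 3 (median 0.98), with ASF1B higher by 2.36. Among 12 replication-independent variants, whose genes have introns and poly(A) tails, 6 were higher and 2 lower there (median 0.19). Over all genes 37.6% were higher and 36.8% lower in that comparison. H2AFZ, encoding H2A.Z, was higher by 1.28, and H3F3A, encoding H3.3, had a log2 fold change of -0.29 and did not pass. In the HMLE-TWIST1 knockdown of day 4, 7 of the 12 variants were lower and 2 higher (median -0.33), against 19% of all genes in each direction. H2AFZ fell by 0.41 and H3F3A by 0.43 there, on the log2 scale. Other RNAs without a poly(A) tail, such as small nuclear and nucleolar RNAs, gave few calls. Of 23 tested, 2 were higher and 6 lower in HMLE-TWIST1 than HMLE scramble libraries of day 4 (median -0.37). In the HMLE-TWIST1 knockdown of day 4, 0 were higher and 2 lower (median 0.06).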

How the data were processed

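Alignment with STAR, counting with HTSeq and the build hg19 (GRCh37) are named per the submitters' processing notes, with no versions. The authors deposited log2 RPKM values for 51 named libraries in 3 separately processed parts. Within each part the values gave back whole reads for 100% of genes (distance from a whole number at most 2.7e-08), with about 2 reads added before the log. These recovered reads were converted to log2 CPM (prior count 2, trimmed-mean scaling), and genes reaching about 10 reads in 3 or more libraries, and 15 in total, were tested with limma 3.58.1 in R 4.3.3 (trend, robust). Adjusted p-values follow Benjamini and Hochberg over all genes. The test was checked on simulated data. RPKM values in the text are recomputed from the recovered reads. A second table, with 81 value columns without names, was not used. The genes and lists were chosen with earlier results of these data known. Genes given with values in every library were the most abundant of each class, up to 2 with the largest rise and fall in a comparison among called genes without overlap and with an average log2 CPM of at least 2, those called against the majority, and genes named for their group. Others were chosen after their values were seen. Same-numbered libraries pair where every correlation of their deviations exceeds 0.1, which held among doses (0.299 to 0.852) and between lines under DMSO on day 2 (0.142 to 0.184) and day 4 (0.113 to 0.193). Alternatives tried were prior count 0.5, no filter, median-of-ratios scaling, scaling without the histone genes, a replicate block, the deposited values themselves, and leaving out each library.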

Additional observations from a re-analysis of the deposited data

Results flagged for a closer look

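The knockdown had different effects in the 2 lines by a test of the difference itself. On day 2, 17 of 59 histone genes had a lower knockdown effect in HMLE-TWIST1 than in HMLE cells, and on day 4, 38 of 60 did, by limma with adjusted p below 0.05. Over all genes 5.83% did on day 2 and 10.7% on day 4. In the scramble libraries the change between day 4 and day 2 was higher in HMLE-TWIST1 than in HMLE cells for 51 of 60 genes, against 16.6% of all genes. Low reads limit the HMLE side of both day 4 results. There 44 of 60 genes were above the read filter in both knockdown and scramble libraries, and 44 of 60 on both days under scramble. Groups of 3 libraries were not tested for outlying samples.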

How the results depend on the processing

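Prior count 0.5, no filter, median-of-ratios scaling and scaling without the histone genes moved none of the 46 counts of genes higher or lower by over 1.5 times. The deposited values, tried for the 38 counts of comparisons within 1 part, moved 4: HMLE-TWIST1 against HMLE under DMSO on day 2 gave 13 higher and 7 lower, 500 against 100 nM gave 0 lower, and the line difference of the day effect gave 1 lower. The replicate block moved 8 of 46 counts. It gave 26 higher and 1 lower at 100 nM, 11 higher at 150 nM, 9 higher at 200 nM, 11 higher and 4 lower at 500 nM, and 1 higher and 19 lower at 500 against 100 nM. Same-numbered dose and DMSO libraries did not pair, so the block counts against DMSO assume a pairing that was not seen. The dose libraries fitted alone with the block gave 2 higher and 39 lower at 500 against 100 nM. That fit was chosen after seeing the data. In 500 against 100 nM 22 genes had an unadjusted p under 0.05. The causes were not tested, and the block moved no other count by over 1.5 times.

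Leaving out 1 library at a time gave the following ranges of genes higher and lower. HMLE-TWIST1 against HMLE gave 4 to 8 higher under DMSO on day 2, 0 to 1 lower under DMSO on day 4 and 0 to 1 lower under scramble on day 4. Doses against DMSO gave 3 to 25 higher and 0 to 1 lower at 100 nM, 1 to 6 and 0 to 1 at 150 nM, 1 to 9 and 0 to 3 at 200 nM, and 1 to 7 and 0 to 6 at 500 nM. The 500 against 100 nM comparison gave 0 to 1 higher and 0 to 23 lower. The 80 nM washout gave 5 to 39 higher. Knockdown gave 0 to 1 lower in HMLE on day 2, 3 to 9 higher in HMLE-TWIST1 on day 2 and 0 to 2 lower in HMLE on day 4, and its line difference on day 2 gave 10 to 18 lower. Day 4 against day 2 gave 1 to 2 higher in HMLE scramble and 2 to 4 higher in HMLE-TWIST1 knockdown libraries, and its line difference gave 0 to 1 lower. All other counts stayed within 1.5 times. Low counts limit the HMLE libraries of day 4, where some histone genes held few reads.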
